A study of Homo sapiens with 28 samples.

Results

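OsO4 with ammonia and iodoacetamide were compared as conversion chemistries for nucleotide-recoding RNA sequencing in HEK293T, a standard cell line of human embryonic kidney origin. The libraries were chosen by the chemistry and handling named in their labels: 12 of the 28 samples of the series, of which 8 came from cells given 4-thiouridine (s4U) and 4 from cells without it. All cells carried the same wild-type genotype, and labelled cells received 100 µM s4U for 2 h. Both chemistries were applied to RNA handled in 2 ways, called drop-out (DO) and improved (IH) in the labels. Every combination had 2 libraries from labelled cells and 1 from unlabelled cells. The labels do not describe what differed between the handlings, and they do not say whether libraries of a group came from separate cultures. The p-values below therefore measure only the spread between these libraries, which may be technical.

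In this assay, s4U enters RNA made during the labelling period in place of some of the uridine. Iodoacetamide alkylates the sulfur of s4U so that reverse transcriptase reads the base as C, whereas OsO4 with ammonia turns s4U into a cytidine base. With either chemistry, a T-to-C mismatch against the genome marks a read as coming from new RNA. Introns and unstable transcripts are enriched for such reads, and stable cytoplasmic mRNAs are poor in them.

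The 8 labelled libraries held 2129372 to 5813077 aligned reads and the 4 unlabelled ones 1935777 to 4243992. Reads were aligned with HISAT-3N, an aligner that tolerates T-to-C mismatches, and each read carried its number of mismatches and of T positions. At this depth counting error was small: the 95% Wilson interval of the converted share in the shallowest labelled library, iodoacetamide IH replicate 1, ran from 39.90% to 40.03%. Reads are not independent molecules, so such an interval covers no error other than that of counting.

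The converted share, meaning the percent of reads that carried 1 or more T-to-C mismatches, was higher on average with OsO4, by 13.7 percentage points under IH and by 2.73 under DO, where the direction rested on single libraries. Under DO the iodoacetamide libraries held 21.96% and 16.7% converted reads and the OsO4 libraries 24.98% and 19.1%. Those ranges overlapped, and the DO difference fell to -0.19 points when OsO4 DO replicate 1 was left out and to 0.11 when iodoacetamide DO replicate 2 was. Leaving out OsO4 DO replicate 2 raised it to 5.65. Under IH the iodoacetamide libraries held 39.96% and 42.8%, and the OsO4 libraries 58.2% and 51.9%. Both OsO4 libraries were above both iodoacetamide libraries there, and the group means were 55.0% ± 4.42 (SD, n = 2) and 41.4% ± 1.99 (SD, n = 2). Averaged over the handlings, the difference was 8.20 points, with a two-sided exact permutation p of 0.111 when chemistries were exchanged within handling. The 36 arrangements of that test cannot give a p below 0.0556, so none of the library comparisons could pass 0.05. The difference was 10.9 points larger under IH than under DO (exact permutation p = 0.278). That p also came from exchanging chemistries within handling. It thus refers to no chemistry effect under either handling and does not test an equal effect under both.

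Without s4U, the order of the chemistries was the opposite. Their converted shares were 5.17% with iodoacetamide and 3.71% with OsO4 under DO, and 3.07% and 2.41% under IH. The single unlabelled libraries have no replicate error. Over all reads, the iodoacetamide DO library without s4U had the highest T-to-C rate of the 4, at 0.345 mismatches per 100 T positions against 0.172 for OsO4 DO, 0.0935 for iodoacetamide IH and 0.0719 for OsO4 IH. In exonic reads iodoacetamide DO was near iodoacetamide IH, at 0.109 and 0.103. Both stayed above OsO4, which had 0.0802 under DO and 0.0748 under IH. Without the ribosomal DNA and mitochondrial contigs the iodoacetamide DO value was 0.110 and the other libraries had 0.0544 to 0.0787. Here and below, the contigs taken as ribosomal DNA included a whole chromosome, so its other genes were left out with them. Over all reads, subtracting the matching unlabelled library gave a converted share difference of 9.26 points, 4.19 under DO and 14.3 under IH. For mismatches per 100 T positions the subtracted difference was 1.53, with 0.576 under DO and 2.49 under IH. The exact permutation p was 0.111 for each. For both measures, the values given with a library left out kept their background.

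Mismatches were also more numerous with OsO4 under IH. Under IH, iodoacetamide gave 3.72 and 3.74 mismatches per 100 T positions in its replicates, and OsO4 gave 7.15 and 5.26. Under DO the values were 1.87 and 0.966 against 2.23 and 1.41. The OsO4 mean was 1.66 times the iodoacetamide mean under IH and 1.28 times under DO, a mean difference of 1.44 per 100 T (exact permutation p = 0.111). With reads aligned by HISAT2, that difference was 0.354, with 0.557 under IH and 0.152 under DO. The DO difference was -0.049 without iodoacetamide DO replicate 2 and -0.0048 without OsO4 DO replicate 1, against 0.403 with all libraries. Without OsO4 IH replicate 1 the IH difference was 1.52, against 2.47. A converted read carried 3.03 and 2.86 mismatches in the iodoacetamide IH libraries and 4.83 and 3.93 in the OsO4 IH libraries. Under DO it carried 2.09 and 1.67 against 2.48 and 2.03. The mean difference was 0.903 mismatches per converted read (exact permutation p = 0.111), and with HISAT2 it was 0.275. With Benjamini-Hochberg adjustment over the 7 library measures tested by exact permutation, these 3 p-values became 0.194.

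**Figure D1:**
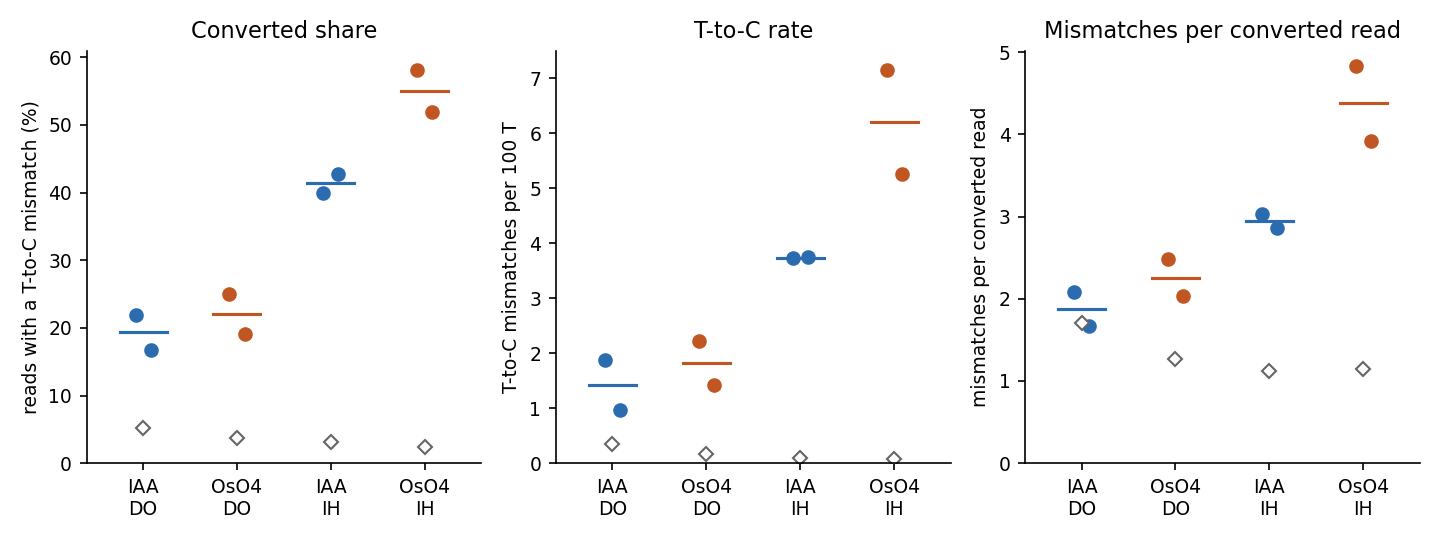
Converted share in percent (left), T-to-C mismatches per 100 T positions (middle) and mismatches per converted read (right) for iodoacetamide (IAA, blue) and OsO4 (orange) under DO and IH. Each filled point is a labelled library, bars are means of 2 libraries and open diamonds are the single unlabelled libraries; the IH groups do not overlap in any panel, and the DO groups do.

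Heavily converted reads set the OsO4 IH libraries apart. Reads with 10 or more mismatches made up 5.69% and 2.52% of the OsO4 IH libraries against 0.67% and 0.50% of the iodoacetamide IH libraries. Reads with 5 to 9 mismatches made up 19.3% and 14.3% against 7.52% and 7.08%. Reads with a single mismatch went the other way: 9.09% and 10.8% with OsO4, 11.98% and 13.5% with iodoacetamide. Counting only reads with at least 2 mismatches, the chemistry difference grew to 9.77 points, 3.09 under DO and 16.5 under IH (exact permutation p = 0.111).

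A model with 2 binomial components estimated how many reads were new and how often their T positions were read as C. It gave all new reads of a library the same mismatch rate. Whether that rate varied with the number of T positions was not tested, so the 2 estimates may not be separate. The lower component was fixed at the rate of the matching unlabelled library. The estimated share of new reads was 41.8% and 46.8% with iodoacetamide under IH and 58.9% and 54.1% with OsO4. Under DO it was 18.2% and 10.7% against 24.96% and 17.9%. The mean difference was 9.58 points (exact permutation p = 0.111), with 4.98 from HISAT2 alignments and 3.55 in exonic reads alone. Its DO part, 6.97 points, was 3.35 with the observed mismatch distribution of the unlabelled library as background, where iodoacetamide DO had 23.5% and 16.6% and OsO4 DO 26.3% and 20.6%. That part was 2.93 without ribosomal DNA and mitochondrial contigs and 3.70 with STAR. It ran from 3.24, without iodoacetamide DO replicate 2, to 10.7, without iodoacetamide DO replicate 1. The estimated mismatch rate of new reads was 8.76% and 7.64% of T positions with iodoacetamide IH and 11.2% and 8.98% with OsO4 IH. Under DO the rates were 8.71% and 6.85% against 8.15% and 7.13%, so the chemistry means differed by -0.14 points under DO and by 1.91 under IH (exact permutation p of the mean difference = 0.444). The sign under DO depended on the background and on the reads: the difference was 1.23 points with the observed mismatch distribution of the unlabelled library as background, 1.29 without ribosomal DNA and mitochondrial contigs, 0.77 with STAR and 0.38 with HISAT2. It was also positive in exonic reads alone and, at 0.70, in intronic reads alone. Leaving out 1 DO library gave DO differences from -1.07, without iodoacetamide DO replicate 2, to 0.79, without iodoacetamide DO replicate 1. The IH difference fell to 0.77 when OsO4 IH replicate 1 was left out and rose to 3.05 when OsO4 IH replicate 2 was.

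The gap between the chemistries depended on how many T positions a read held. Reads with 0 to 9 T had nearly the same converted share with both, a difference of -0.41 points, and the difference was 2.82 points at 20 to 29 T, 7.82 at 40 to 49 T and 20.2 at 60 to 69 T. That group was the last formed, and reads with more T were left out of the comparison by T positions. In it the iodoacetamide DO libraries had converted shares of 34.9% and 24.8%, and the OsO4 DO libraries 49.0% and 36.4%. The IH libraries had 43.4% and 59.2% with iodoacetamide and 81.1% and 76.7% with OsO4. The groups did not overlap under either handling, which gives the smallest p the test allows (exact permutation p = 0.0556). This was the smallest p of the 7 groups of reads by T positions, which were examined after the data had been seen: it was 0.111 at 40 to 49 and at 50 to 59 T, 0.222 at 30 to 39 T and 0.278 to 0.611 below that (exact permutation). The T-to-C rate of reads with 60 to 69 T had an exact permutation p of 0.111. The iodoacetamide IH replicates were themselves far apart here, and without replicate 1 the difference was 16.3 points. With HISAT2 it was 11.9 points, 4.84 under DO and 19.0 under IH. The DO part, 12.8 points, was 6.56 when OsO4 DO replicate 1 was left out and 7.79 when iodoacetamide DO replicate 2 was. Unlabelled libraries had 2.24% to 3.39% converted reads at 60 to 69 T, each below its share over all reads.

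The T-to-C rate per T position showed the same pattern, although it is already divided by the number of T positions. Reads with 20 to 29 T and reads with 50 to 59 T were compared within each library. T-poor and T-rich, here and below, for reads and for genes, refer only to the number of T positions per read. The counts used here give no read length, so length and base composition cannot be told apart. In the OsO4 IH libraries the rate was 5.19 and 3.79 per 100 T in T-poor reads and 8.16 and 6.08 in T-rich reads. In the iodoacetamide IH libraries it was 4.02 and 3.62 in T-poor reads and 3.58 and 4.13 in T-rich reads. The log2 ratio of T-rich over T-poor reads was 0.65 and 0.68 with OsO4 IH and -0.17 and 0.19 with iodoacetamide IH. Under DO it was 0.52 and -0.13 with OsO4 and -0.19 and -0.49 with iodoacetamide. Every OsO4 library was thus above both iodoacetamide libraries of its handling (exact permutation p = 0.0556, the smallest possible). The group means differed by 0.53 under DO and 0.66 under IH on the log2 scale. OsO4 DO replicate 2 was only just above iodoacetamide DO replicate 1, and leaving out OsO4 DO replicate 1 brought the DO difference to 0.21. With HISAT2 the DO difference was 0.18.

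Exonic and intronic reads each showed this ordering when taken alone, although introns are richer in new RNA. In exonic reads the log2 ratio was -0.31 ± 0.14 (SD, n = 2) with iodoacetamide IH and 0.46 ± 0.01 (SD, n = 2) with OsO4 IH. In intronic reads it was -0.06 ± 0.16 (SD, n = 2) and 0.31 ± 0.02 (SD, n = 2). Under DO the exonic means were -0.09 and 0.47 and the intronic means 0.55 and 0.93, iodoacetamide first. The groups did not overlap under either handling in exonic reads or in intronic reads (exact permutation p = 0.0556 in each). Among intronic reads with 60 to 69 T, 93.9% and 92.3% were converted with OsO4 IH, against 66.4% and 82.5% with iodoacetamide IH.

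**Figure D2:**
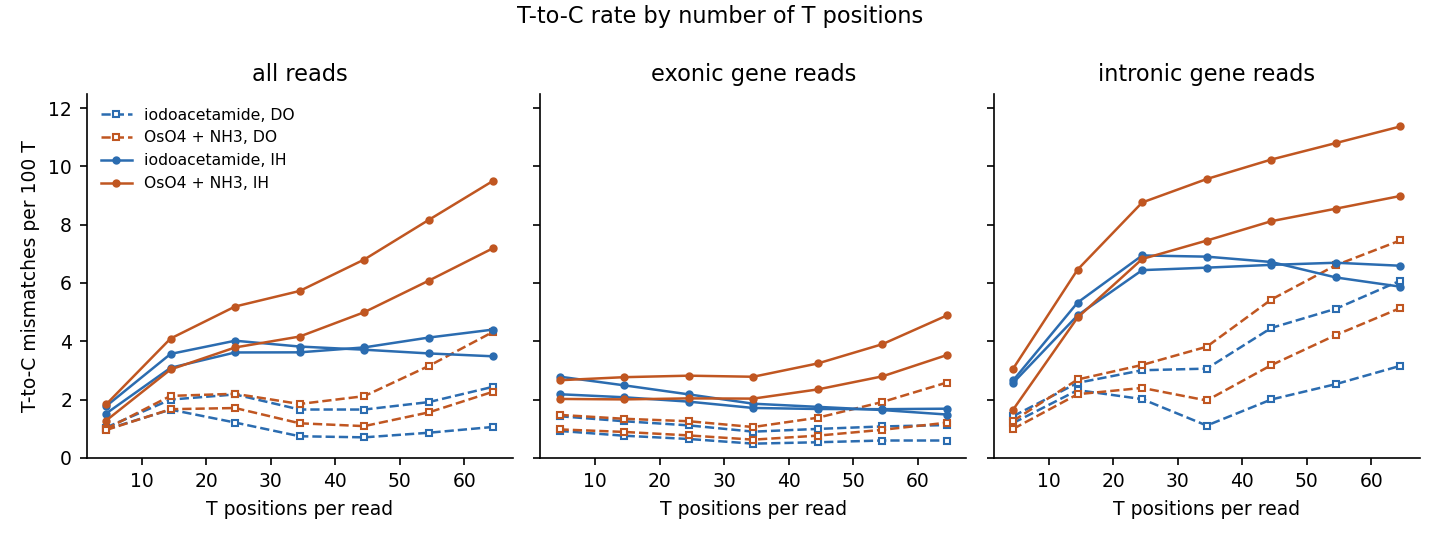
T-to-C mismatches per 100 T positions (y axis) against the number of T positions per read in groups of 10 (x axis), for all, exonic and intronic reads; each line is a labelled library. At 60 to 69 T in all reads, the OsO4 IH libraries (solid orange) reach 9.51 and 7.20 and the iodoacetamide IH libraries (solid blue) 3.48 and 4.40; the dashed DO lines overlap, at 4.33 and 2.27 with OsO4 and 2.44 and 1.06 with iodoacetamide.

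T-rich reads, here those with 60 to 69 T, were also less frequent in labelled iodoacetamide libraries. They made up 0.58% and 0.76% of the iodoacetamide DO libraries and 1.33% and 0.91% of the OsO4 DO libraries. Under IH they made up 3.25% and 3.12% against 7.56% and 7.06%. The groups did not overlap under either handling, with a mean difference of 2.29 points (exact permutation p = 0.0556). With HISAT2 the mean difference was 0.99 points, and in exonic reads alone it was 1.11. Leaving out OsO4 DO replicate 1 lowered the DO part from 0.45 to 0.24. Without s4U the iodoacetamide library held 0.83% under DO and 5.87% under IH, and the OsO4 library 1.03% and 6.81%. The labelled iodoacetamide IH libraries thus had 0.554 and 0.532 times the T-rich reads of their unlabelled library, whereas the labelled OsO4 IH libraries had 1.11 and 1.04 times. Under DO the ratios were 0.702 and 0.910 with iodoacetamide and 1.30 and 0.889 with OsO4. The ribosomal DNA contigs held 15.3% and 12.3% of reads in labelled iodoacetamide IH libraries and 8.59% and 8.72% with OsO4 IH. Without s4U they held 10.2% and 9.89% under IH. Under DO the labelled libraries had 44.9% and 28.1% with iodoacetamide and 37.4% and 39.7% with OsO4. Off the ribosomal DNA and mitochondrial contigs, the mean difference in T-rich reads was 2.55 points.

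The mean number of T positions per read followed: 32.6 and 32.7 in the labelled iodoacetamide IH libraries, 36.8 in the unlabelled one, and 39.3 and 38.8 against 38.4 with OsO4 IH. Under DO it was 24.5 and 28.9 with iodoacetamide and 27.8 and 27.5 with OsO4. The mean difference was 3.67 T per read (exact permutation p = 0.167), and its DO part, 0.94, was -1.28 without iodoacetamide DO replicate 1 and 3.15 without iodoacetamide DO replicate 2. When all libraries were weighted to a single distribution of T positions, the chemistry difference in converted share was 5.03 points, 3.05 under DO and 7.01 under IH.

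Intronic reads, which can come from unspliced RNA, made up 42.1% to 45.1% of gene reads in the iodoacetamide IH libraries. In the OsO4 IH libraries they made up 47.0% to 51.8%. Their converted share averaged 67.8% and 82.4% in the same order, against 25.0045% and 31.2% in exonic reads. Under DO their converted share averaged 29.1% with iodoacetamide and 34.1% with OsO4, against 13.5% and 15.0% in exonic reads. The intronic share of gene reads overlapped under DO, at 29.03% to 35.2% and 32.2% to 33.7%. The mean difference in intronic share was 3.34 points (exact permutation p = 0.222). It was 0.33 with HISAT2, where the DO part was -0.48, and 1.81 without iodoacetamide DO replicate 2, where the DO part was -2.19; without OsO4 IH replicate 1 it was 2.15. The unlabelled libraries had the opposite order, 47.9% with iodoacetamide IH and 46.1% with OsO4 IH.

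Reads on the mitochondrial contig, whose polycistronic transcripts encode respiratory chain subunits and the organelle's own rRNAs and tRNAs, made up less of the OsO4 libraries. Under DO they were 3.56% and 3.52% of reads with iodoacetamide and 2.72% and 2.74% with OsO4. Under IH they were 2.41% and 3.10% against 1.92% and 2.27%. The groups did not overlap under either handling, and the mean difference was -0.73 points (exact permutation p = 0.0556). Unlabelled libraries differed as much, by -0.68 points under each handling, so the difference was present without s4U. Leaving out iodoacetamide IH replicate 2 reduced the IH part from -0.66 to -0.31. Among the reads of this contig the converted share was higher with OsO4, 33.5% against 24.3% under IH and 28.4% against 24.8% under DO, where the libraries overlapped (exact permutation p of the mean difference = 0.111).

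Single genes were tested over exonic reads. The count table names genes by identifiers that no table used here pairs with symbols, so at most 2 genes in each direction are given per comparison. For the converted share, edgeR compared the numbers of reads with and without a mismatch in the 2043 genes with at least 50 exonic reads in every labelled library. It was shifted toward OsO4 as a whole: 1507 of 2043 genes (73.8%) had a log2 odds ratio above 0, and the median was 0.21. With HISAT2 the median was 0.10, with 62.7% of genes above 0, and with exonic and intronic reads together it was 0.38. With a library left out the median ran from 0.12, without iodoacetamide DO replicate 2, to 0.31, without OsO4 DO replicate 2. Only 2 genes passed an adjusted p of 0.05 in edgeR's quasi-likelihood test, both higher with OsO4, or 0.0979% of those tested; 176 had an unadjusted p under 0.05. No gene passed the edgeR test of whether the chemistry difference depended on handling, and 34 had an unadjusted p under 0.05. The 34 were a share below 0.05 of the genes tested and the 176 a share above it, over genes that share libraries. The number of calls rested on single libraries: 29 genes were called without iodoacetamide DO replicate 1, 29 without OsO4 DO replicate 2, none without iodoacetamide IH replicate 1 and 1 without any of 5 others. The order of genes by converted share was alike, with Spearman's rho of 0.868 under DO and 0.910 under IH across the 2043 genes of pooled replicates, a description over genes that share libraries.

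Gene ENSG00000229807, on chromosome X, was the most deeply covered of the called genes. Its converted share under IH was 15.0% and 17.2% with iodoacetamide and 25.8% and 23.5% with OsO4. Under DO it was 19.2% and 14.4% against 29.4% and 23.0%. Both OsO4 libraries were above both iodoacetamide libraries under each handling, with unlabelled shares of 2.59% to 5.17%. The log2 odds ratio was 0.80 (SE 0.15, edgeR adjusted p = 0.00104). Its counts did not pass, with a log2 change of 0.10 (edgeR adjusted p = 0.999). The share call did not hold without iodoacetamide IH replicate 1 (edgeR adjusted p = 0.170) or with HISAT2 alignments (0.822).

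Gene ENSG00000114354, on chromosome 3, had 22.1% and 32.9% converted reads with iodoacetamide IH and 61.0% and 47.1% with OsO4 IH, from 131 to 333 reads per library. Under DO it had 14.1% and 6.77% against 33.0% and 17.2%, from 58 to 133 reads. The log2 odds ratio was 1.66 (SE 0.39, edgeR adjusted p = 0.0457). This call did not hold when any of 6 of the 8 libraries was left out, nor in 4 other settings, with adjusted p-values up to 0.890.

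The T-to-C rate per T position was tested with limma on a log2 scale, with 0.5 added to the mismatches and 1 to the T positions. Its log2 ratio was above 0 for 1708 of the same 2043 genes (83.6%), with a median of 0.35. With HISAT2 that median was 0.15, with 66.9% of genes above 0. With a library left out it ran from 0.21, without iodoacetamide DO replicate 2, to 0.53, without iodoacetamide DO replicate 1. Again 2 genes were called, both higher with OsO4, or 0.0979%; 205 had an unadjusted p under 0.05. Without OsO4 DO replicate 2 the count was 92, without iodoacetamide DO replicate 1 or iodoacetamide IH replicate 2 it was 5, and without iodoacetamide DO replicate 2 it was 0. Gene ENSG00000229807 had a log2 ratio of 1.19 (SE 0.21, limma adjusted p = 0.00478). The other was ENSG00000147257, on chromosome X. Under IH it had 0.143 and 0.133 mismatches per 100 T with iodoacetamide and 2.09 and 0.735 with OsO4, and under DO 0.0488 and 0.0491 against 0.568 and 0.217. The iodoacetamide values of that gene were within the range of its unlabelled libraries, 0 to 0.0706, under DO and above it under IH. Its log2 ratio was 2.79 (SE 0.46, limma adjusted p = 0.00365), from 1 to 5 converted reads per iodoacetamide library and 8 to 19 per OsO4 library. Neither rate call was made with the reads aligned by STAR or by HISAT2: for both genes the limma adjusted p was 0.105 with STAR and 0.983 with HISAT2. The log2 ratio of ENSG00000147257 was 1.05 with HISAT2 and 0.70 with exonic and intronic reads together, where the call was also lost (limma adjusted p = 0.518). That of ENSG00000229807 was 0.59 with HISAT2. Both calls were also lost with a minimum of 20 reads (limma adjusted p = 0.157 for ENSG00000147257 and 0.180 for ENSG00000229807) and after subtracting the unlabelled library (0.172 and 0.249), where the log2 ratio of ENSG00000147257 was 4.17. Without iodoacetamide DO replicate 2 the limma adjusted p was 0.0571 and 0.129 in the same order.

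The dependence on T positions was also seen between genes. The 2042 genes that also had at least 50 reads in the labelled and in the unlabelled libraries of another chemistry, periodate with trifluoroethylamine under IH, were split into 5 groups of equal size by their T positions per read in that unlabelled library. The median log2 ratio of the T-to-C rate, OsO4 over iodoacetamide, was 0.23 in the T-poorest group (median 26.5 T per read), then 0.29, 0.34 and 0.37, and 0.59 in the T-richest group (median 41.6 T per read). The ratio was above 0 for 309 of 409 genes (75.6%) in the T-poorest group and for 379 of 409 (92.7%) in the T-richest. Within each library, the median log2 rate of the T-richest group minus that of the T-poorest was -0.21 and -0.27 with iodoacetamide DO and -0.26 and -0.25 with iodoacetamide IH. It was 0.26 and -0.20 with OsO4 DO and 0.23 and 0.25 with OsO4 IH. All 4 iodoacetamide libraries were below all 4 OsO4 libraries, and the mean difference was 0.39 (exact permutation p = 0.0556). The DO part of that difference, 0.28, was 0.046 when OsO4 DO replicate 1 was left out. OsO4 DO replicate 2 lay close to the iodoacetamide libraries.

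**Figure D3:**
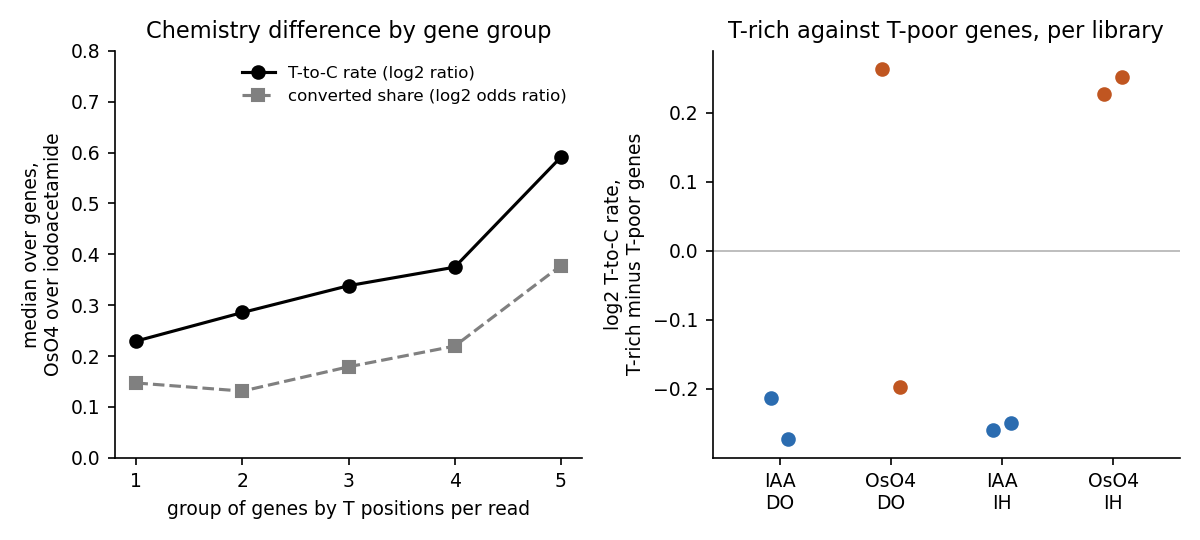
Left, median over genes of the chemistry difference (log2, OsO4 over iodoacetamide) in the T-to-C rate and the converted share, for 5 groups of genes from T-poor (1) to T-rich (5); the rate rises from 0.23 to 0.59. Right, for each labelled library, the median log2 T-to-C rate of the T-rich group minus that of the T-poor group; the 4 iodoacetamide libraries lie between -0.27 and -0.21.

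The median difference in converted share was larger among genes with a high converted share in the periodate libraries. When the same genes were split by their background-subtracted converted share in the periodate libraries, the median log2 odds ratio of OsO4 over iodoacetamide was 0.05 in the lowest group and 0.39 in the highest. In the highest group the median converted share was 40.2% with iodoacetamide IH and 45.8% with OsO4 IH, and in the lowest 11.1% and 11.9%. Under DO the medians were 24.8% and 28.6% in the highest group and 6.61% and 6.19% in the lowest, where OsO4 had the smaller value. These compared shares kept their background. In exonic reads without s4U it was 3.28% with iodoacetamide and 2.56% with OsO4 under DO, and 3.57% and 2.71% under IH. That background is a larger part of the low shares, and the comparison without it was not made. The median log2 ratio of the T-to-C rate was 0.27 in the lowest group and 0.39 in each of the 3 highest, so it did not rise among those. Counts of the highest group, relative to the lowest and to the unlabelled library of the same chemistry and handling, had log2 gaps of -0.39 to -0.10 with iodoacetamide and -0.24 to -0.05 with OsO4. Both labelled libraries of a group share that single unlabelled library, so their gaps are not independent and their common sign is not tested. The chemistries overlapped in this gap under DO and not under IH, and their mean difference of 0.12 had an exact permutation p of 0.222. That difference was 0.053 without iodoacetamide DO replicate 2, with a DO part of -0.039, 0.077 without OsO4 DO replicate 1 and 0.195 without iodoacetamide DO replicate 1.

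Few genes were called for a count difference between the chemistries. Of 12121 genes tested in labelled libraries with edgeR's quasi-likelihood model, 12 were called, or 0.099%, and 514 had an unadjusted p under 0.05. Without iodoacetamide DO replicate 1 there were 22 calls. All 12 were lower with OsO4, and all 12 also had a negative log2 change in the unlabelled libraries, where no gene was called by edgeR (291 with an unadjusted p under 0.05; DESeq2 called 5, all lower). No gene passed the edgeR test of whether the chemistry difference depended on s4U (317 unadjusted) or on handling (460 unadjusted). Each of these unadjusted edgeR numbers was below a share of 0.05 of the genes tested, the share that no difference would give on average. The 12 genes were T-poor, with a median of 16.8 T positions per read in the unlabelled libraries against 36.3 over all genes tested. They had few reads under IH, a median over the 12 genes of 4.5 reads per labelled IH library, and 2 of them had no read in any labelled IH library.

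Gene ENSG00000201185, on chromosome 6, had 352 and 547 CPM (reads per 1000000 exonic reads, TMM-scaled) with iodoacetamide DO and 74.5 and 73.1 with OsO4 DO. Under IH it had 1.91 and 6.97 against 1.38 and 3.54, from at most 11 reads per library. The unlabelled DO libraries had 383 and 77.0, a difference of the same order without s4U. Its log2 change was -2.40 (SE 0.27, edgeR adjusted p = 1.81e-05) in labelled libraries and -2.24 in unlabelled ones (edgeR adjusted p = 0.0519). Gene ENSG00000201098, on chromosome 7, had 249 and 309 CPM with iodoacetamide DO, 78.7 and 52.6 with OsO4 DO, 4.76 and 15.2 with iodoacetamide IH and 4.14 and 4.42 with OsO4 IH. Its log2 change was -1.91 (SE 0.25, edgeR adjusted p = 0.000154) in labelled and -1.63 in unlabelled libraries. Neither gene was called when all 18 libraries of the count table entered the fit (edgeR adjusted p = 0.282 and 0.0976).

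Most genes of the mitochondrial contig had fewer reads with OsO4, but few passed the test. Of the 20 tested, 19 had a negative log2 change with OsO4, against 46.8% of all genes, and 3 were called lower by edgeR, against 0.099%, with log2 changes from -3.40 to 0.05 and a median of -0.31 against 0.02 over all genes. In the unlabelled libraries all 20 were negative, against 48.9% of all genes, with a median of -0.53 against 0.01. In the converted share, all 14 tested had a log2 odds ratio above 0, against 73.8% of all genes, between 0.03 and 0.73, with a median of 0.48 against 0.21 over all genes, and none was called.

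**Figure D4:**
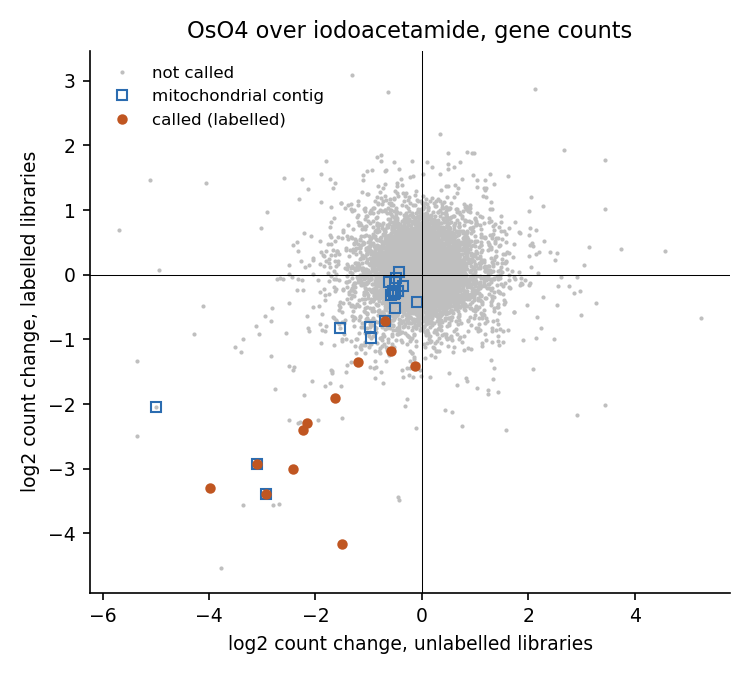
Log2 change in counts, OsO4 over iodoacetamide, in labelled libraries (y axis) against unlabelled libraries (x axis) for 12121 genes; orange points are the 12 genes called in labelled libraries and blue squares the 20 genes of the mitochondrial contig. All 12 called genes lie in the lower left part of the plot, with negative changes on both axes.

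Degradation rate constants were taken from the authors' deposited table, which gives for each transcript, chemistry and handling a single bakR estimate with no error and no stated time unit. That table is therefore described and not tested. The authors' deposited table held 2262 transcripts for OsO4 and 1600 for iodoacetamide, and 1482 were shared, 65.5% and 92.6% of the respective lists. In the authors' deposited table the shared transcripts had a median constant of 0.0335 with iodoacetamide and 0.0375 with OsO4 under DO, and of 0.0817 and 0.0931 under IH. The median log2 ratio of OsO4 over iodoacetamide in the authors' deposited table was 0.17 under DO (SD over transcripts 0.57) and 0.18 under IH (SD 0.42), equal to 1.13 times under each handling. A total of 720 transcripts (48.6%) in the authors' deposited table were higher with OsO4 under both handlings, 197 (13.3%) were lower under both and 565 changed sign between handlings.

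Transcripts with a ratio of at least 2 under both handlings numbered 14 in the authors' deposited table (0.945%), all higher with OsO4, and none was at least 2-fold lower under both. The leading transcript in the authors' deposited table was RPS13, a small ribosomal subunit protein, with constants of 0.00436 with iodoacetamide and 0.0134 with OsO4 under DO and 0.0119 and 0.0350 under IH. Next in the authors' deposited table came GPC3, the cell-surface proteoglycan glypican 3, at 2.95 times under DO and 2.48 times under IH. RNU4-2, a U4 spliceosomal RNA, was 2.37 and 2.91 times higher in the authors' deposited table. The others of the first 8 in the authors' deposited table were SRP14 of the signal recognition particle, the clathrin heavy chain CLTC, the mitochondrial chaperonin HSPD1, the polyamine enzyme ODC1 and the cytochrome oxidase subunit COX6A1, with ratios of 2.17 to 2.81.

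In the other direction the authors' deposited table was led by HLA-B, a class I antigen-presenting molecule, whose OsO4 constant was 0.525 times the iodoacetamide one under DO and 0.520 times under IH. CDK4, a cell-cycle kinase, followed in the authors' deposited table at 0.520 and 0.556 times. Others among the first 8 were TUBGCP2 of the microtubule-nucleating complex, NUCB1, COPS6 of the COP9 signalosome, PEBP1 and RAVER1, with ratios of 0.389 to 0.660 in the authors' deposited table.

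Stable mRNAs mostly had larger constants with OsO4 under IH. Over all 1482 shared transcripts of the authors' deposited table, 70.2% were higher with OsO4 under IH and 65.0% under DO. Of 20 long-lived mRNAs, 16 were shared in the authors' deposited table, and 15 of them (93.8%) were higher with OsO4 under IH and 11 (68.8%) under DO, a share near that of all transcripts under DO. Their median log2 ratios in the authors' deposited table were 0.46 and 0.26. The glycolytic enzyme PGK1 was 2.05 times higher under IH in the authors' deposited table, the elongation factor EEF1A1 1.93 times and the actin ACTB 1.64 times. EEF2 was lower, at 0.716 times under IH in the authors' deposited table. Of the 69 shared mRNAs of cytoplasmic ribosomal proteins, 60 (87.0%) were higher with OsO4 under IH and 46 (66.7%) under DO in the authors' deposited table, with medians of 0.41 and 0.20. Under DO that share and median were near those of all transcripts in the authors' deposited table. Their spread was wide in the authors' deposited table: under DO, RPS10 had a log2 ratio of -1.82 and RPS13 of 1.62. The list was matched by symbol and includes RPL7L1, a ribosomal-protein-like gene, with ratios of 1.47 under DO and 1.22 under IH in the authors' deposited table.

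Few short-lived mRNAs could be compared. Only 4 of the 25 listed had constants with both chemistries in the authors' deposited table: the transcription factors JUN, JUND, MYC and SOX4. The constants of MYC in the authors' deposited table were 1.13 with iodoacetamide and 1.05 with OsO4 under DO and 0.953 and 0.871 under IH. JUN had 1.09 and 1.02 under DO and 0.547 and 0.563 under IH in the authors' deposited table. JUND was lower with OsO4 in the authors' deposited table, at 0.940 times under DO and 0.900 times under IH. SOX4 changed sign in the authors' deposited table, with 0.723 and 0.526 under DO, a ratio of 0.727, and a ratio of 1.12 under IH. The median log2 ratio of these 4 in the authors' deposited table was -0.10 under DO and -0.05 under IH, below that of all transcripts under both handlings.

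All 13 mitochondrially encoded RNAs had larger constants with OsO4 under both handlings in the authors' deposited table, against 48.6% of all transcripts. Their median log2 ratios in the authors' deposited table were 0.31 under DO and 0.39 under IH. For the mitochondrial rRNA MT-RNR2 the authors' deposited table gave 0.0152 with iodoacetamide and 0.0195 with OsO4 under DO, and 0.0147 and 0.0231 under IH. For MT-ND1, a complex I subunit, the authors' deposited table gave 0.407 and 0.472 under DO and 0.404 and 0.497 under IH.

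The snoRNA host RNAs, noncoding transcripts whose introns carry small nucleolar RNAs, had the largest list median under IH. All 6 shared were higher with OsO4 under IH and 4 (66.7%) under DO in the authors' deposited table, against 70.2% and 65.0% of all transcripts, with median log2 ratios of 0.83 and 0.70. GAS5 was 2.07 times higher under IH and 3.13 times under DO in the authors' deposited table. The 5 SR splicing factors and the 4 chaperones shared were higher under both handlings in the authors' deposited table, against 48.6% of all transcripts. Their median log2 ratios under IH were 0.26 and 0.60, against 0.18 for all transcripts of the authors' deposited table. Some members were nearly equal in the authors' deposited table: SRSF4 had ratios of 1.06 under DO and 1.001 under IH, and HSP90AB1 of 1.02 under DO. SRSF3 had ratios of 2.07 under DO and 1.97 under IH in the authors' deposited table.

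RNAs made by RNA polymerase III lay lower under DO. In the authors' deposited table all 5 of them, the 7SK RNA that holds the elongation factor P-TEFb inactive, the signal recognition particle RNAs RN7SL1 and RN7SL2, RMRP and RPPH1, had smaller constants with OsO4 under DO, with a median log2 ratio of -0.20, whereas 65.0% of all transcripts were larger. Under IH 4 of the 5 were larger in the authors' deposited table, with a median of 0.16. The 23 shared histone transcripts, among which H1F0 and H1FX are not tied to replication, had medians of 0.11 and 0.13 in the authors' deposited table, and 11 (47.8%) were higher under both handlings, against 48.6% of all transcripts. The 3 genes of s4U uptake and salvage, NME1, NME2 and UCK2, did not share a direction in the authors' deposited table. Of the nuclear long noncoding RNAs, MALAT1 and SNHG1 were shared, and both were higher with OsO4 under both handlings in the authors' deposited table, against 48.6% of all transcripts. SNHG1 is also among the snoRNA host RNAs above. MALAT1 had ratios of 1.06 under DO and 1.52 under IH in the authors' deposited table.

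**Figure D5:**
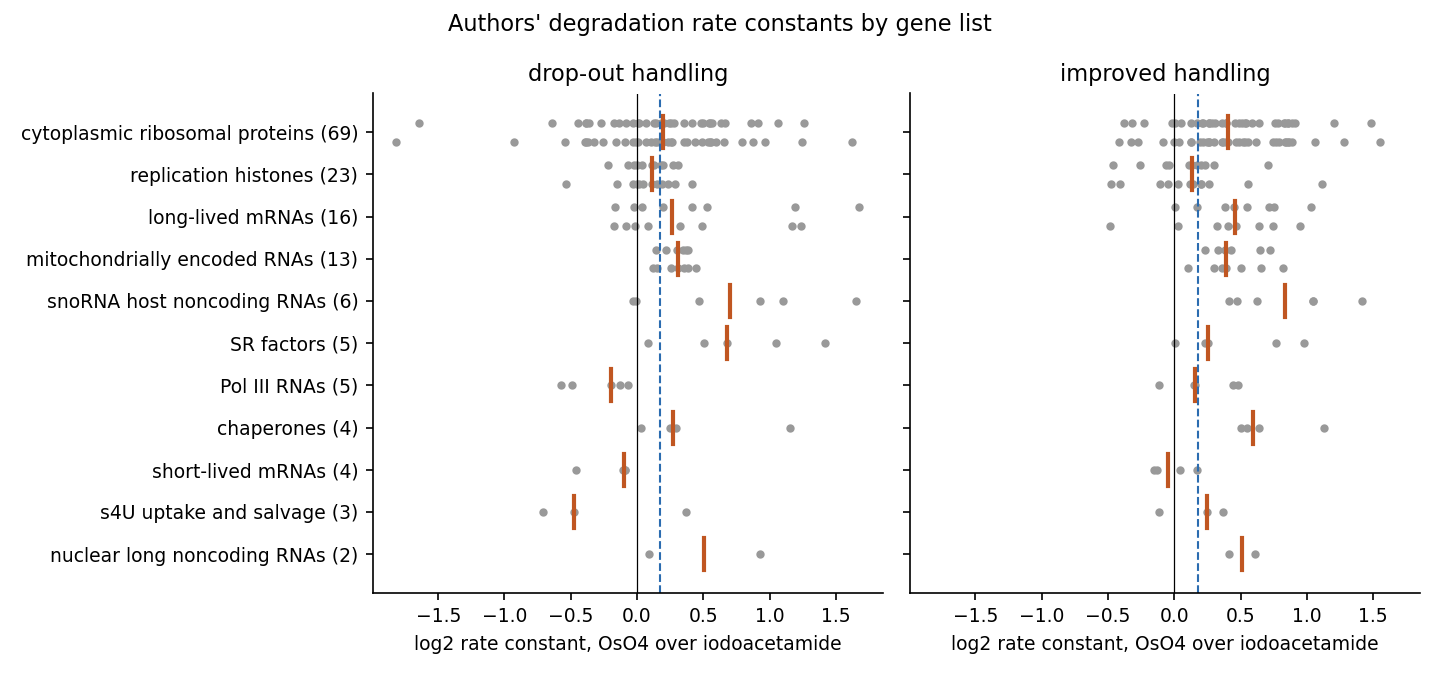
Log2 ratio of the rate constants in the authors' deposited table, OsO4 over iodoacetamide (x axis), for each shared member (grey points) of 11 gene lists with the number of members in brackets, under DO (left) and IH (right). Orange bars are list medians and the dashed blue line is the median of all 1482 transcripts, 0.17 and 0.18; the 13 mitochondrially encoded RNAs all lie right of 0 in both panels.

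Of the HEK293 markers, NEFM, an intermediate filament of neurons, and VIM, the filament protein vimentin, were among the shared transcripts of the authors' deposited table, and 3 of 6 were listed for any chemistry. None of the 8 markers of blood, liver, pancreas, skin or muscle cells was listed for any chemistry in the authors' deposited table, which holds only transcripts with a fitted rate.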

How the data were processed

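The authors deposited a table of read counts, in which each row combines a library, an aligner, a contig, a gene, an intronic flag and 2 whole numbers of another unit, the T-to-C mismatches per read and the T positions per read, per the file headers. Tools named in the submitters' processing notes are cutadapt, HISAT, HISAT2, STAR, Picard, HTSeq and DESeq2, with build GRCh38; versions, settings codes and the counting of reads that fit several genes are not given in the sources used here. Trizol-extracted, DNase-treated RNA went into stranded total-RNA libraries, per the labels. A further deposited table gives bakR rate constants for each handling, their log2 fold change between handlings and an adjusted p-value, per the labels; ratios between chemistries were computed from the deposited constants.

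Library measures used all reads and gene tests exonic reads, with edgeR 4.0.16 (TMM, filterByExpr) or limma 3.58.1 (trend) in R 4.3.3 and Benjamini-Hochberg adjustment at 0.05. The count fit held 12 libraries, which shared the spread. Alternatives were other aligners, read classes, filters and DESeq2 1.42.0. No replicate pair was a duplicate: chi-square per degree of freedom was 2.13 to 8.68. On simulated data, the count test recovered 90.5% of genes changed by a log2 of 1. Those genes were drawn from the better-covered ones, so the value does not describe genes with few reads. The converted-share test recovered 45% at a log2 odds ratio of 1 and 98% at 2. The rate test recovered 16% at a log2 of 1 and 78% at 2. Genes called that had not been changed numbered 10, 8 and 5 in these simulations, in the same order. The spread in the share and rate simulations came from fits without a chemistry term, so real chemistry differences entered it. Genes were drawn independently, so the simulations do not describe libraries that shift as a whole.

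Identified genes had an adjusted p under 0.05, 1 sign under both handlings and a mean of at least 100 reads (up to 2 per direction, largest change); transcripts were the 8 leading in each direction by the smaller of the DO and IH ratios, of which 1 is not reported here. Histones were matched through current symbols. The libraries and gene lists were chosen with earlier results of these data known. Comparisons by T positions per read, by converted share in the periodate libraries and of mitochondrial reads were added after the data had been seen. The 6 periodate libraries served only to group genes.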

Additional observations from a re-analysis of the deposited data

How the results depend on the processing

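Averaged over the handlings, all 101 alternative values of the 7 library measures kept their direction, and none could pass 0.05. The DO part alone did not: it changed sign in some settings for the converted share, the T-to-C rate per T position, T positions per read, the intronic share and the T-to-C rate of new reads. With HISAT2 the mean differences were smaller, at 4.44 points of converted share, 0.354 mismatches per 100 T and 0.275 per converted read. The converted share difference ran from 3.84 points in exonic reads to 9.84 in intronic reads. The T-rich over T-poor rate ran from 0.38 to 0.70 (log2) over 7 alternatives and from 0.43 to 0.76 with a library left out, and the share of reads with 60 to 69 T differed by 0.99 to 2.55 points off HISAT-3N, off the ribosomal and mitochondrial contigs or under the replicate block, with 1.11 in exonic and 3.91 in intronic reads.

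Numbers of called genes moved more; the causes were not tested. For labelled counts (12) there were 22 with exonic and intronic reads, 29 with no filter and 3 with 18 libraries; with a library left out, 10 to 22. For unlabelled counts (0) there were 2 with STAR, 1 with HISAT2, 1 with exonic and intronic reads, 11 with no filter and 5 with DESeq2. Dependence on s4U (0) gave 1 with no filter and 0 to 0 with a library left out. For the converted share (2) there were 0 with HISAT2, 13 with exonic and intronic reads, 1 with at least 20 reads and 1 with at least 2 mismatches; with a library left out, 0 to 29. For the T-to-C rate (2) there were 0 with STAR, 0 with HISAT2, 0 with at least 20 reads, 1 with at least 200 reads and 0 after subtracting the unlabelled library; with a library left out, 0 to 92.

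The labels do not say that replicate numbers pair libraries. Deviations of same-numbered libraries of the 2 chemistries correlated over genes at 0.22 under DO and 0.02 under IH for counts, and at 0.06 and 0.04 for the converted share, with only 2 numbers per group. With the replicate block, 41 genes were called for labelled counts, 2 higher and 39 lower with OsO4. For the converted share 59 were called, 55 higher and 4 lower, and for dependence on s4U 1 was called. The library differences had exact p-values of 0.125 or more under that block. Among named genes, 25 of 90 alternative fits lost the call and none changed sign.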
